A study of Spirodela polyrhiza and Pistia stratiotes and Colocasia esculenta with 79 samples.

Results

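RNA of the stipe of the greater duckweed, Spirodela polyrhiza, was set against RNA of the frond region labelled NodeTract. The comparison took every library of the 2 regions, 4 of Stipe and 4 of NodeTract, which is 8 of the 79 libraries of a series on dissected body regions of duckweeds and their larger relatives. All 8 came from strain 9509, with no mutation or treatment named in the labels. The Spirodela data held 28 libraries in all, 4 from each of Stipe, NodeTract, Node, Tract, LowerWall, Basal and Apical. The labels call the libraries of a region biological replicates but name neither plants nor cultures, so the p-values measure only the spread between these libraries.

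Spirodela floats on still water as a flattened, leaf-like frond that multiplies by budding. Daughter fronds arise from pouches beside the node, the attachment point near the base of the frond from which roots also grow, and each daughter stays joined to its mother by a short stalk, the stipe, until it breaks away. The stipe is thus a slender connecting organ, while the node region carries the growing points. The labels do not say where NodeTract was cut or how it relates to the separately sampled Node and Tract. The Node and Tract libraries carry a separate set of labels, which state growth at 22 °C where those of the other regions do not. Stipe and NodeTract belong to the same set.

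Levels are in TPM, a transcript's reads per length scaled by the authors to a common total in each library, so they can be compared between transcripts but carry no read depth and allow no counting interval. Column totals lay between 999671 and 999911 TPM. The table held 16332 transcripts, 1 for each gene identifier, and 15802 of them reached at least 1 TPM in at least 4 of the 28 libraries and were tested. No source used here pairs the identifiers with names of genes, so the regions could not be checked against known marker genes and transcripts are described by level, rank and pattern across the plant. In such bulk samples, fewer cells of a type and less RNA per cell cannot be told apart.

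The stipe and NodeTract were alike in outline and far apart in detail. Across transcripts on the log2(TPM + 1) scale, pairs of Stipe libraries had a Pearson r between 0.913 and 0.958, and pairs of NodeTract libraries between 0.915 and 0.965. Stipe with NodeTract gave 0.749 to 0.857, with a mean of 0.799 over 16 pairs, below every pair within either region. Each r runs over transcripts of a pair of libraries, and transcripts are not independent of each other. Of the 6 other regions NodeTract had the highest mean r with Stipe, followed by LowerWall at 0.792 with an overlapping range of 0.740 to 0.832, then Tract at 0.765, Node at 0.754, Basal at 0.735 and Apical at 0.711. The nearest region to NodeTract was Node, at a mean r of 0.891, with LowerWall at 0.859 and Tract at 0.852. The Stipe libraries were not equally distant from NodeTract. Stipe 2 was closest, at a mean r of 0.848 with the NodeTract libraries, and Stipe 4 furthest, at 0.760, with Stipe 1 at 0.780 and Stipe 3 at 0.809. The median SD of a transcript over the 4 libraries was 0.38 log2 units in Stipe and 0.29 in NodeTract.

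Differences were widespread. The limma test on log2(TPM + 1), fitted over all 28 Spirodela libraries, called 7226 of 15802 transcripts at an adjusted p under 0.05, which is 45.7% of those tested. Of these, 3059 (19.4% of those tested) were higher in Stipe and 4167 (26.4%) were lower. In 5496 of the called transcripts, 76.1%, the 4 Stipe values lay entirely above or entirely below the 4 NodeTract values. The same held for 565 of the 8576 transcripts that were not called. Calls and overlap rest on the same libraries, so the gap between these shares follows in part from the choice. Most differences were moderate. The median log2 difference was 1.08 among transcripts higher in Stipe and −1.21 among those lower, and the median over all tested transcripts was −0.17, with a median SE of 0.28. A log2 difference of at least 1 in size was reached by 1699 called transcripts higher and 2634 lower in Stipe. At a size of at least 2 there were 584 higher and 805 lower, and at a size of at least 4 the balance turned, with 108 higher and 75 lower. The excess of lower calls rested largely on 1 library. Without Stipe 4 there were 2914 calls higher and 3037 lower, and the median over all tested transcripts was −0.09.

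**Figure D1:**
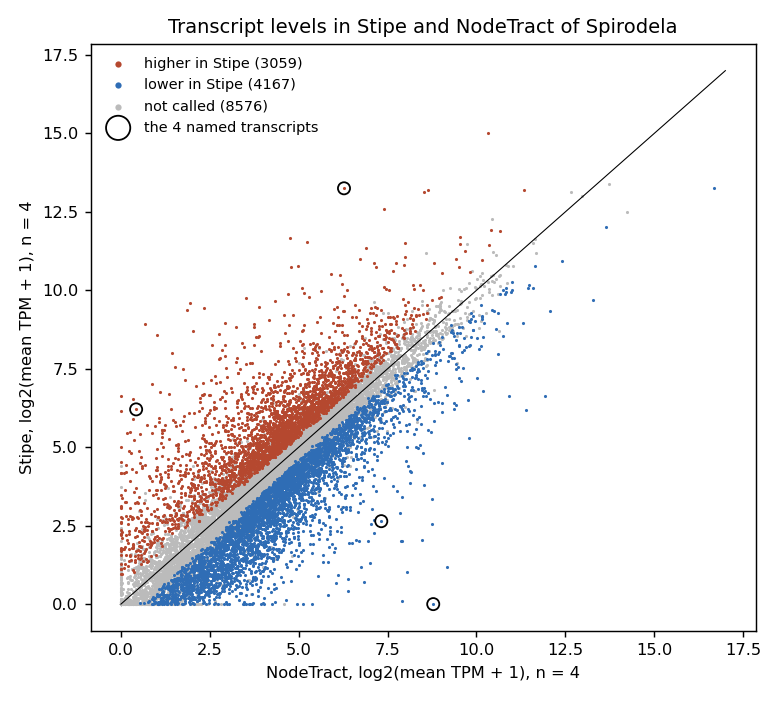
Mean level of each of the 15802 tested transcripts in NodeTract (horizontal axis) and Stipe (vertical axis), as log2 of mean TPM plus 1, n = 4 libraries each; colours mark the limma calls, circles the 4 transcripts described by identifier, and the line equal levels. The 4167 transcripts lower in Stipe lie below the line and are dense at low and middle levels, while the 3059 higher in Stipe include points far above it.

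The direction of change went with the level of the transcript. Among 4625 transcripts with a mean of 1 to 10 TPM over the 8 libraries, 35.6% were lower in Stipe and 9.43% higher. Among 8692 transcripts at 10 to 100 TPM the directions were even, at 23.9% lower and 23.8% higher. Among 1677 transcripts at 100 to 1000 TPM, 18.7% were lower and 30.5% higher, and of the 96 above 1000 TPM, 26 were lower and 27 higher. Over the 8 libraries, the transcripts called higher in Stipe were thus fewer and lay at higher levels. The level groups were not recounted without Stipe 4 or after rescaling, so their dependence on these was not tested. The transcripts called higher held 38.5%, 36.9%, 41.4% and 49.8% of all TPM in the 4 Stipe libraries, against 12.1%, 11.6%, 12.5% and 12.6% in the 4 NodeTract libraries. Those called lower held 11.4%, 16.0%, 12.1% and 9.50% of the TPM in Stipe, against 35.2%, 43.5%, 41.9% and 40.6% in NodeTract. Since the calls come from these same libraries, these shares describe the called sets and test nothing.

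Fewer transcripts were detected in the stipe than in NodeTract. At a minimum of 1 TPM, 13801, 14579, 14168 and 13464 transcripts were present in the Stipe libraries, against 14911, 14707, 14874 and 14742 in the NodeTract libraries. All 4 Stipe libraries lay below all 4 NodeTract libraries, Stipe 2 by the least. Low counts were not particular to Stipe. Basal libraries held 12831 to 13231 and Apical libraries 12577 to 12876, below every Stipe library. LowerWall ranged from 13689 to 14321, Tract from 13598 to 14684 and Node from 14747 to 14915. The means were 14003 ± 479.7 in Stipe and 14808.5 ± 99.2 in NodeTract (SD, n = 4 each), a difference of −805.5. A two-sided exact permutation test over libraries gave p = 0.0286, the smallest that 4 against 4 can give. Benjamini-Hochberg adjustment left that value unchanged. It covered 2 main measures only, this count and the share of the 10 most abundant transcripts. The further exact permutation tests reported here took no part in the adjustment, and their p-values are unadjusted. The difference was −646 transcripts at a minimum of 0.5 TPM and −920.25 at a minimum of 5 TPM, each again without overlap (exact permutation p = 0.0286). Read depth is unknown here, and its part in these counts was not tested.

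The second measure was how far the RNA was concentrated in a few transcripts. The 10 most abundant transcripts of each library held 9.12%, 11.0%, 10.6% and 15.5% of its TPM in Stipe, against 20.2%, 20.7%, 19.6% and 16.2% in NodeTract. The regions did not overlap, although Stipe 4 came close to NodeTract 4. The means were 11.6% ± 2.73 in Stipe and 19.2% ± 2.01 in NodeTract (SD, n = 4 each; two-sided exact permutation p = 0.0286, also after adjustment over the 2 measures). With the 100 most abundant transcripts the means were 28.0% in Stipe and 33.2% in NodeTract and the regions overlapped (exact permutation p = 0.0571). The number of transcripts that together made up 50% of the TPM averaged 571 ± 116 in Stipe and 451 ± 60.3 in NodeTract (SD, n = 4 each), which did not pass the same exact permutation test (p = 0.114).

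**Figure D2:**
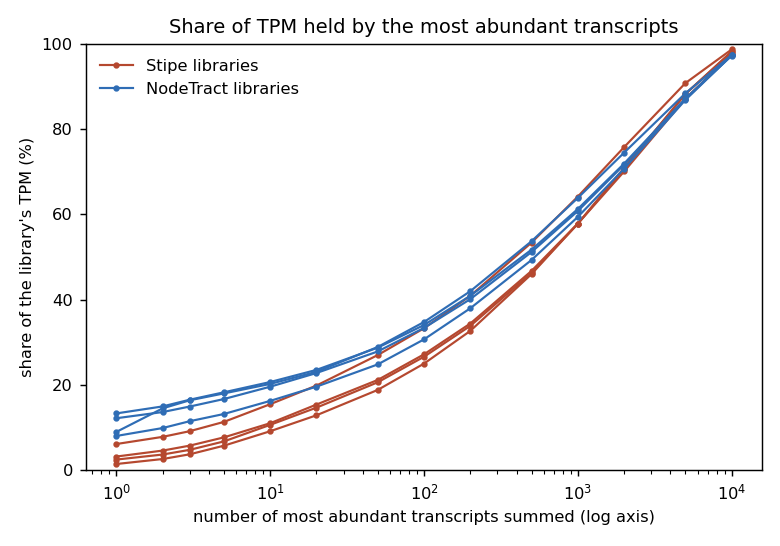
Share of each library's TPM (vertical axis, percent) held by its most abundant transcripts, against the number of transcripts summed (horizontal log axis), one line per library. At 10 transcripts the Stipe lines lie between 9.12% and 15.5% and the NodeTract lines between 16.2% and 20.7%; the lines meet further right.

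A different transcript headed each region. The most abundant Stipe transcript stood first in all 4 Stipe libraries, at 14303, 31803, 24693 and 61164 TPM, against 748 to 1712 TPM in NodeTract. Its means were 32991 ± 20110 TPM in Stipe and 1284 ± 418 TPM in NodeTract (SD, n = 4 each). The log2 difference was 4.55, with an SE of 0.80 and a limma adjusted p of 7.5e-05. Stipe 4 was the highest by far and Stipe 1 the lowest, yet even Stipe 1 was above every NodeTract library. In NodeTract it held rank 60 by mean level. Elsewhere in the frond it averaged 2428 TPM in LowerWall and between 224 and 454 TPM in Node, Tract, Basal and Apical.

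The transcript that headed NodeTract made up 8.96%, 13.3%, 12.2% and 8.01% of all TPM there, at 89542, 132981, 121688 and 80089 TPM in the 4 libraries. In Stipe it was at 7856, 11626, 9180 and 10176 TPM, still the fourth most abundant by mean. The means were 9709 ± 1592 TPM in Stipe and 106075 ± 25274 TPM in NodeTract (SD, n = 4 each), and the transcript fell by 3.43 on the log2 scale (SE 0.53, limma adjusted p = 1.7e-05). It also stood first in all 4 Node libraries, at 76230 to 92325 TPM, and averaged 16986 TPM in Tract, 13955 in LowerWall, 8865 in Apical and 5903 in Basal.

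Because TPM is a share of a fixed total, a transcript of this size bears on all the others. With it left out and the rest rescaled to the same total per library, a setting added after the data had been seen, the calls came to 2523 higher and 5156 lower in Stipe, and the median log2 difference of all tested transcripts moved to −0.29. Median-of-ratios rescaling moved the balance the other way, to 3420 higher and 4090 lower with a median of −0.11. Calls lower in Stipe outnumbered those higher under both.

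The lists of the 10 most abundant transcripts of the 2 regions shared 4 members. Of the Stipe list, 6 were called higher in Stipe, 1 was lower and 3 were not called. Of the NodeTract list, none was called higher in Stipe, 6 were lower and 4 were not called. Of all tested transcripts, 19.4% were higher in Stipe and 26.4% lower. Each list was chosen by the mean of its own region, so a lean of its calls toward that region follows in part from the choice. The Stipe list also held transcripts that stayed far lower in every other region. That at rank 5 averaged 9480 ± 2289 TPM in Stipe and 398 ± 90.8 TPM in NodeTract (SD, n = 4 each), and at most 492 TPM elsewhere, with a limma log2 difference of 4.56 (adjusted p = 4.5e-07). That at rank 8 averaged 9036 ± 5225 TPM in Stipe and 365 ± 103 TPM in NodeTract (4.52, limma adjusted p = 2.7e-06). That at rank 10 averaged 6226 ± 1322 TPM in Stipe and 167 ± 24.0 TPM in NodeTract (5.20, limma adjusted p = 1.4e-05). At the other end, the transcript at rank 10 of the NodeTract list averaged 98.7 ± 53.9 TPM in Stipe and 3900 ± 2002 TPM in NodeTract (SD, n = 4 each), with 15639 in Node and 16011 in Tract (log2 difference −5.30, SE 0.66, limma adjusted p = 8.9e-07). The transcript ranked second in NodeTract averaged 5753 ± 1334 TPM in Stipe and 19236 ± 24076 in NodeTract (SD, n = 4 each). Its NodeTract libraries ranged from 5177 to 55260 TPM and it was not called (limma adjusted p = 0.17).

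Transcripts described by identifier had to be called, to have a mean of 10 TPM or more on the higher side and to show no overlap between the libraries, which left 2410 higher and 2002 lower in Stipe. From each direction the transcript with the largest log2 difference was taken, and the one with the largest moderated t. Among those lower in Stipe both fell on Sp9509d018g002570_T001, so the next by t, Sp9509d013g005460_T001, was taken beside it. Having been picked as extremes of this contrast, their values in Stipe and NodeTract are descriptions of the far ends of the distribution.

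The largest difference was that of Sp9509d002g012110_T001. It was at 11702, 7898, 10524 and 8865 TPM in the Stipe libraries, against 0.312, 10.7, 96.7 and 197.9 TPM in the NodeTract libraries. All Stipe libraries were high and close together, while the NodeTract libraries spread widely at low levels. The means were 9747 ± 1695 TPM in Stipe and 76.4 ± 91.8 TPM in NodeTract (SD, n = 4 each), 8.69 apart on the log2 scale (SE 1.25, limma adjusted p = 6.9e-06). The size of the difference depended on single NodeTract libraries, at 7.30 without NodeTract 1, 9.38 without NodeTract 3 and 9.72 without NodeTract 4. By mean level it held rank 3 in Stipe and rank 2160 in NodeTract. In Tract it ranged from 20.8 to 711 TPM, in LowerWall from 2.35 to 236, in Node from 5.98 to 61.9, and in Basal and Apical it stayed at or below 13.6 TPM. The highest library outside Stipe was thus a Tract library, far below the lowest Stipe library.

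The largest moderated t in the same direction was that of Sp9509d002g000900_T001, at 56.9, 44.0, 59.4 and 130.8 TPM in Stipe, against 0, 0.203, 1.09 and 0.0890 TPM in NodeTract. Stipe 4 was the highest and every NodeTract library was near 0. The means were 72.8 ± 39.3 TPM in Stipe and 0.345 ± 0.502 TPM in NodeTract (SD, n = 4 each), 5.71 apart on the log2 scale (SE 0.32, limma adjusted p = 9.8e-12). With a pseudocount of 0.1 this became 7.86, as every NodeTract value is small. Node averaged 4.43 ± 1.15 TPM, Tract 2.40 ± 1.50 and LowerWall 0.316 ± 0.258, and all Basal and Apical libraries were listed at 0. Regions at 0 throughout add no spread to the fit over 28 libraries. With the Stipe and NodeTract libraries fitted alone the limma adjusted p was 1.1e-05.

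In the other direction, every Stipe library listed Sp9509d018g002570_T001 at 0, while it stood at 332.6, 664.8, 613.7 and 148.0 TPM in NodeTract, with a mean of 439.8 ± 243 (SD, n = 4; limma adjusted p = 9.8e-12). No fold is given against libraries listed at 0. The Node libraries held 293 to 1321 TPM, with a mean of 649 ± 483. All Tract, Basal and Apical libraries were listed at 0, and of the LowerWall libraries only 1 was above 0, at 3.93 TPM. Its levels in the other libraries thus placed it in Node and NodeTract, with Node above Tract in the same fit (limma adjusted p = 2.6e-12). Stipe, Tract, Basal and Apical, all at 0, add no spread to that fit. With the Stipe and NodeTract libraries fitted alone, the limma adjusted p for Stipe against NodeTract was 4.2e-06.

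Sp9509d013g005460_T001 was at 5.02, 6.54, 5.60 and 3.83 TPM in Stipe, against 142.3, 115.5, 176.2 and 202.5 TPM in NodeTract. The libraries of each region were close together and the regions far apart. The means were 5.25 ± 1.13 TPM in Stipe and 159 ± 38.1 TPM in NodeTract (SD, n = 4 each), −4.67 on the log2 scale (SE 0.27, limma adjusted p = 9.8e-12). Node was higher still, at 333 ± 62.9 TPM, and Tract, LowerWall, Basal and Apical averaged 22.3, 24.3, 26.9 and 34.1 TPM, all above Stipe. Node was above Tract by a log2 difference of 3.87 (limma adjusted p = 7.1e-10). For the pair higher in Stipe the Node minus Tract differences were −2.91 for Sp9509d002g012110_T001 and 0.78 for Sp9509d002g000900_T001, and neither passed the test (limma adjusted p = 0.087 and 0.078).

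**Figure D3:**
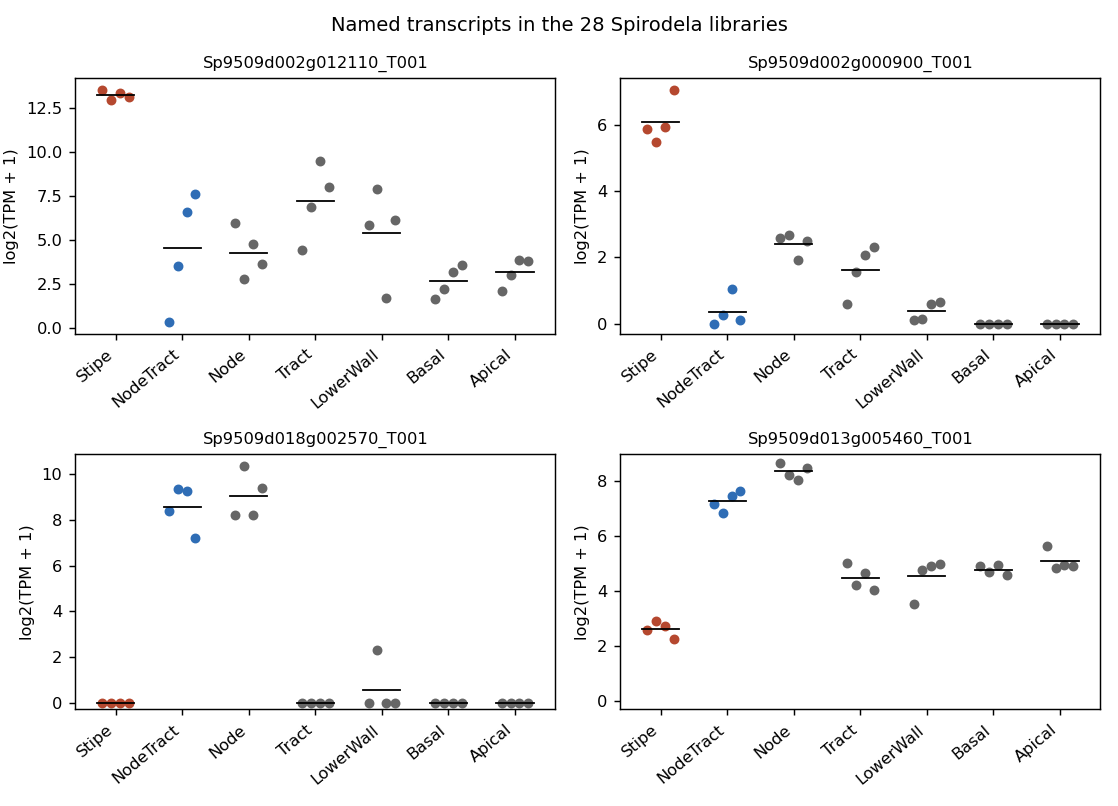
Level of the 4 transcripts described by identifier in each of the 28 Spirodela libraries, as log2(TPM + 1) on the vertical axis, by region; points are libraries and bars are region means on that scale, n = 4. The upper pair is highest in Stipe, and Sp9509d002g012110_T001 also reaches 711 TPM in a Tract library. The lower pair is high in NodeTract and Node and lowest in Stipe, at 0 for Sp9509d018g002570_T001, where Tract, Basal and Apical are also at 0.

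Identifiers of the table are numbered in steps of 10 within 20 prefixes. Whether that order follows the genome is not stated in the sources used here, so nearness in number is given only as such. Beside Sp9509d002g000900_T001, the transcript numbered 10 lower averaged 257 ± 97.6 TPM in Stipe and 1.71 ± 0.915 TPM in NodeTract, and that numbered 20 lower 1089 ± 434 TPM in Stipe and 33.4 ± 4.74 TPM in NodeTract (SD, n = 4 each). Their log2 differences were 6.53 and 4.92 (limma adjusted p = 5.9e-10 and 4.7e-11). The transcript numbered 30 higher was also called, at 98.8 TPM in Stipe and 18.4 in NodeTract, while that numbered 10 higher was not, at 9.06 TPM in Stipe and 7.28 in NodeTract. Beside Sp9509d002g012110_T001 the only neighbour called went the other way. The transcript numbered 20 lower averaged 72.0 ± 69.6 TPM in Stipe and 2681 ± 2629 TPM in NodeTract (log2 difference −5.04, SE 0.93, limma adjusted p = 0.00014), and 28859 TPM in Basal and 39531 in Apical, where Sp9509d002g012110_T001 itself had its lowest means. Beside Sp9509d013g005460_T001, 4 of the 6 tested neighbours within 30 were lower in Stipe and none was higher. Beside Sp9509d018g002570_T001, 2 of 5 were higher in Stipe, at log2 differences of 1.44 and 0.76, and none was lower. Of all tested transcripts 26.4% were lower in Stipe and 19.4% higher, and so few neighbours cannot show a local pattern.

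Over the whole table, transcripts with consecutive numbers shared a direction a little more often than all transcripts did. Among 12755 pairs of tested transcripts numbered 10 apart, the second was higher in Stipe in 24.7% of those whose first was higher (605 of 2453), against 19.6% of all pairs. It was lower in 30.7% of those whose first was lower (1029 of 3348), against 26.2% of all pairs. The same counts were made for large differences. Called transcripts at least 3 log2 units higher in Stipe made up 1.50% of those tested, and of the 176 with a tested next number, 25 (14.2%) were followed by another and 2 by one at least 3 units lower. Those at least 3 units lower made up 1.54%, and 15 of 184 (8.15%) were followed by another and 2 by the opposite. Such pairs can overlap, since 3 large differences in a row give 2 pairs. The number of separate stretches behind them was not counted, so these shares need not hold across the whole table. By prefix the called share ran from 42.5% in Sp9509d017 to 49.6% in Sp9509d008, so the differences were spread over all of them.

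Few transcripts were listed at 0 throughout one region and well detected in the other. In 12 cases all Stipe libraries were at 0 and the NodeTract mean was at least 10 TPM, with a median of 16.6 and a highest value of 439.8 TPM. Of these, 11 were called, 8 were above 0 in all 4 NodeTract libraries, and 9 reached a mean of 10 TPM in some further region. The highest of the 5 remaining regions was Node for 6, LowerWall for 5 and Tract for 1. In 9 cases all NodeTract libraries were at 0 and the Stipe mean was at least 10 TPM, with a median of 20.1 and a highest value of 98.8 TPM. Of these, 7 were called, 5 were above 0 in all 4 Stipe libraries and 3 reached a mean of 10 TPM in some further region. For 2 of the 9, every region but Stipe averaged below 1 TPM. The one with the highest Stipe mean ranged from 15.8 to 293 TPM there and reached at most 1.98 TPM as a mean in any other region. Both sets were chosen on Stipe and NodeTract values, so the calls among them follow in part from the choice. Of all tested transcripts 45.7% were called.

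The 20 libraries outside the contrast show where else in the plant the changed transcripts were high. Of the 3059 transcripts higher in Stipe, 2259 (73.8%) had their highest mean of all 7 regions in Stipe itself, against 21.1% of all tested transcripts. NodeTract was the lowest region for 591 (19.3%) of them, against 7.33% of all. Of the 4167 lower in Stipe, 1046 (25.1%) had their highest mean in NodeTract, against 11.6% of all tested, and 1862 (44.7%) in Node, against 35.0% of all. Stipe was the lowest of the 7 regions for 1715 (41.2%) of them, against 18.5% of all, and Apical for 1487 (35.7%), against 37.4% of all. Since the call compares Stipe with NodeTract, the shares for these regions follow in part from the choice. Among the 5 remaining regions alone, Node was the highest for 64.7% of the transcripts lower in Stipe and for 44.4% of those higher, against 53.3% of all tested transcripts. Tract was the highest for 8.88% of those lower and 20.9% of those higher, against 13.3% of all, and LowerWall for 7.54% of those lower and 19.7% of those higher, against 14.3% of all.

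Node and Tract were therefore set against each other in the same fit, as a readout from libraries that take no part in the Stipe and NodeTract means. Of all tested transcripts, 19.8% were higher in Node than Tract and 5.14% were lower. Among transcripts lower in Stipe than NodeTract, 1241 of 4167 (29.8%) were higher in Node and 184 (4.42%) lower. Among those higher in Stipe, 368 of 3059 (12.0%) were higher in Node and 234 (7.65%) lower. The median Node minus Tract log2 difference was 0.08 in the transcripts higher in Stipe and 0.55 in those lower, against 0.28 over all. By size, the share higher in Node was 29.3% among transcripts at least 4 log2 units lower in Stipe, 35.8% at 2 to 3 units lower, 13.1% at up to 1 unit higher, and 4.63% at 4 or more units higher.

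The level of these shares depended on scaling, while the share stayed larger among transcripts lower in Stipe. After median-of-ratios rescaling, 19.5% of the transcripts lower in Stipe and 5.56% of those higher were higher in Node than Tract, against 10.8% of all. Those lower in Node made up 13.1% of the transcripts higher in Stipe, against 8.66% of all. With a pseudocount of 0.1 the shares higher in Node were 19.0% of those lower in Stipe and 8.54% of those higher. The 2 contrasts share no library but share one estimate of the spread. Tract 1 was unlike the other Tract libraries, with 13598 transcripts at 1 TPM or more against 14435 to 14684. Its 10 most abundant transcripts held 27.0% of TPM, against 15.9% to 16.5%. No Node or Tract library was left out singly, so the part of Tract 1 in these shares was not tested.

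**Figure D4:**
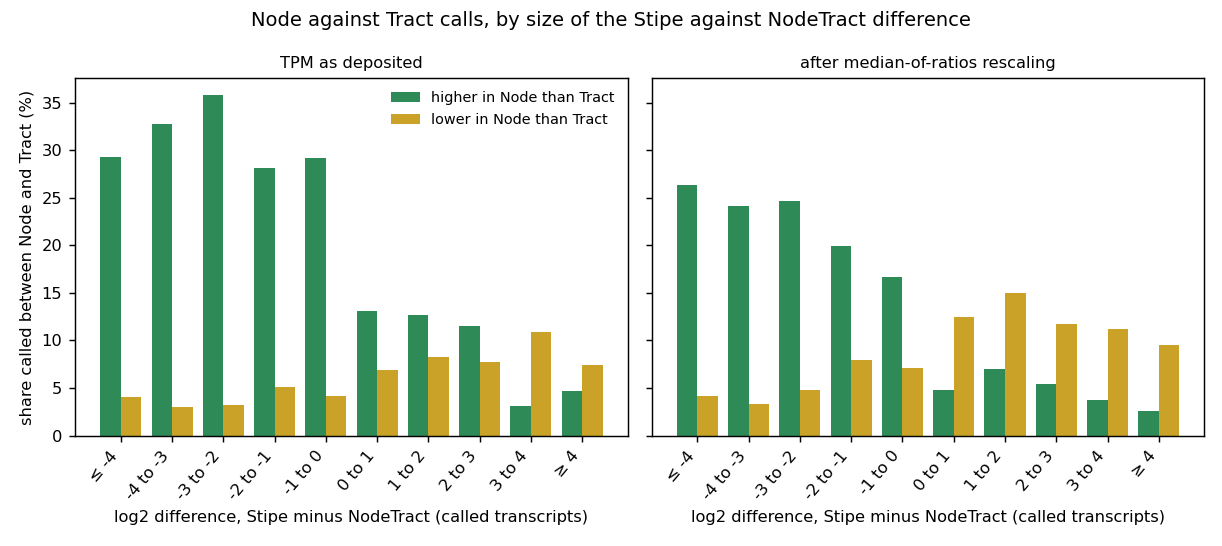
Share of called transcripts (vertical axis, percent) that were also called higher (green) or lower (yellow) in Node than Tract, by the log2 difference of Stipe minus NodeTract (horizontal axis), for TPM as deposited (left) and after median-of-ratios rescaling (right). On the left the green bars lie at 28.2% or above for every size lower in Stipe and at 13.1% or below for every size higher; on the right they lie at 16.7% or above and at 7.03% or below.

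LowerWall and Basal gave a second comparison free of the Stipe and NodeTract libraries. Of all tested transcripts 18.0% were higher in LowerWall than Basal and 10.5% were lower. The transcripts higher in Stipe held 22.8% higher and 7.75% lower in LowerWall, and those lower in Stipe held 20.5% higher and 13.3% lower. After median-of-ratios rescaling these shares were 17.3% and 11.2%, then 20.2% and 16.4%, against 15.6% and 13.9% of all tested. Which set held the larger share higher in LowerWall thus depended on scaling. With TPM as deposited, 38.7% of the transcripts at least 4 log2 units lower in Stipe were higher in LowerWall, and 41.7% of those 3 to 4 units lower. On the other side the shares were 27.8% at 4 or more units higher in Stipe and 17.1% at 3 to 4 units higher.

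Transcripts marked in a single region were then followed into Stipe and NodeTract. A transcript was called marked in Node when it averaged at least 10 TPM there and at least 5 times its mean in each of Tract, LowerWall, Basal and Apical, so no Stipe or NodeTract value entered the choice. There were 139 such transcripts. Of them 92 (66.2%) were lower in Stipe and 7 higher, against 26.4% and 19.4% of all tested transcripts, and their median log2 difference was −1.72, against −0.17 over all. Their summed level was 2710, 2141, 2370 and 2451 TPM in the Stipe libraries, against 5411, 6493, 7411 and 5668 TPM in the NodeTract libraries, and 9692 to 13758 TPM in Node itself. No Stipe library reached the lowest NodeTract library. Between 99 and 108 of the 139 were at 1 TPM or more in a Stipe library, against 135 to 137 in a NodeTract library, and 6 were listed at 0 in every Stipe library. The share called lower was 61.7% of 373 transcripts with a 3-fold margin and 76.5% of 51 with a 10-fold margin.

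The leaf-like Apical and Basal regions, together called the blade, were treated in the same way. Both had to average at least 10 TPM and at least 5 times each of Node, Tract and LowerWall, which gave 82 transcripts. Of these 19 (23.2%) were higher in Stipe and 9 (11.0%) lower, against 19.4% and 26.4% of all tested transcripts, so the share higher was close to that of the whole table. Their median log2 difference was 0.08, against −0.17 over all. Their summed level was 1702, 2133, 2546 and 2796 TPM in Stipe, against 576, 705, 895 and 604 TPM in NodeTract, and 16763 to 69402 TPM in the blade libraries. All Stipe libraries were above all NodeTract libraries, and both regions were far below the blade. Between 30 and 45 of the 82 were at 1 TPM or more in a Stipe library and between 25 and 41 in a NodeTract library, so the sums rest on fewer than all members. How much tissue of another region each dissected sample held was not tested.

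**Figure D5:**
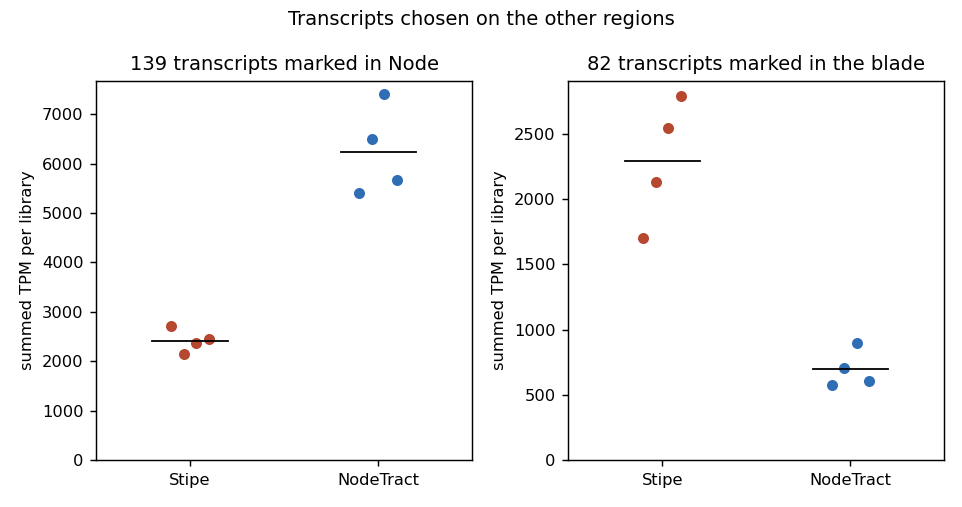
Summed TPM per library (vertical axis, from 0) of 139 transcripts marked in Node (left) and of 82 marked in Apical and Basal, the blade (right), in the 4 Stipe and 4 NodeTract libraries; points are libraries and bars are means. The Node-marked sums lie between 2141 and 2710 TPM in Stipe and between 5411 and 7411 TPM in NodeTract, and the blade-marked sums between 1702 and 2796 TPM in Stipe and between 576 and 895 TPM in NodeTract.

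The other regions marked few transcripts. Of 34 marked in LowerWall, 7 were higher and 1 lower in Stipe, and the 20.6% higher was close to the 19.4% of all tested. Their summed level, 15400 to 61640 TPM in Stipe and 1026 to 3044 TPM in NodeTract, was mostly that of the transcript heading Stipe, which is itself among them. Of 8 marked in Tract, 1 was higher and 1 lower, and their sums were 478, 399, 471 and 136 TPM in Stipe, against 102, 51.9, 68.0 and 155 TPM in NodeTract, which overlap. Basal alone marked 4 transcripts and Apical alone 1, too few to describe.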

How the data were processed

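Pieces of dissected Spirodela frond were recovered from RNAlater, extracted with a micro-scale column kit and made into poly-A libraries by Novogene, per the labels' protocols. The authors deposited TPM values; the submitters' processing notes name Salmon 1.10.0. Of the reference transcripts, the read depth and any filter, nothing is given in the sources used here, and every transcript of the table exceeds 2 TPM in some library.

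From the deposited TPM, limma 3.58.1 (R 4.3.3; moderated test with trend, Benjamini-Hochberg adjustment over 15802 transcripts) was fitted to log2(TPM + 1) with region as the only term, over 28 libraries. A fold on this scale understates the change of low transcripts. For measures with 1 value per library, exact two-sided permutation tests were run in scipy 1.17.1 (Python 3.11.15, pandas 2.3.3). The rule for transcripts named by identifier took, among called transcripts averaging at least 10 TPM in the higher region with no overlap between libraries, the largest log2 difference and the largest moderated t in each direction, the next by t where both fell on 1 transcript. Marker lists could not be used, since no source paired identifiers with names. The contrast, rules and lists were chosen with earlier results of these data known. Alternatives changed the pseudocount, filter, scaling and libraries fitted, added a replicate block, or left out each Stipe and NodeTract library in turn. No library of another region was left out singly. The setting without the most abundant NodeTract transcript, and the sets marked in other regions with their margins, were added after the data had been seen. Tables of the other species were not analysed here.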

Additional observations from a re-analysis of the deposited data

Results flagged for a closer look

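Among 38 groups of 4 values examined, 2 held a value far from the other 3 by Dixon's test, which by chance marks about 1 group in 20. The 38 include groups at 0 throughout, which could not be marked, and that rate does not apply to groups mostly at 0. Both marked values concern transcripts described by identifier, in regions outside the contrast. For Sp9509d018g002570_T001, 1 LowerWall library stood at 3.93 TPM while the other 3 were listed at 0. For Sp9509d013g005460_T001, 1 Apical library stood at 49.0 TPM while the other 3 lay between 28.1 and 30.2 TPM.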

How the results depend on the processing

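The number of transcripts called stayed within 1.5 times the 7226 reported under all alternatives tried. It was 6852 with a pseudocount of 0.1, 7225 without a filter, 7510 after median-of-ratios rescaling, 6352 with the Stipe and NodeTract libraries fitted alone, 7165 without the Node and Tract libraries, 7679 without the most abundant NodeTract transcript, and 5951 (without Stipe 4) to 7369 (without Stipe 2) with 1 library left out. With the replicate number as a block it was 6727 in the fit of these 8 libraries and 8452 in the fit without Node and Tract, each above the fit without a block. Same-numbered libraries correlated at 0.286, 0.135, 0.0717 and 0.0831 in their deviations. Differently numbered ones ran from −0.193 to 0.172, and Stipe 3 and Stipe 4 each correlated best with another number. The numbers were not taken as pairs because the labels do not say that equal numbers share plants or days. Whether they do was not tested. The 4 transcripts described by identifier kept their call in all 16 alternatives, with a largest adjusted p of 0.0019. The difference in detected transcripts ranged from −997.5 to −625.8, and in the share of the 10 most abundant from −8.93 to −6.81 percentage points, with 1 library left out, each at an exact permutation p of 0.0571, the smallest that 4 against 3 can give; for the 100 most abundant it was −5.20 points (p = 0.0571). The share higher in Node than Tract among transcripts lower in Stipe was 19.0% with a pseudocount of 0.1, 19.5% after rescaling, 37.0% without the most abundant NodeTract transcript and 28.5% to 34.1% with 1 Stipe or NodeTract library left out. Among transcripts higher in Stipe it was 8.54%, 5.56%, 17.3% and 10.9% to 12.9% in the same order; the cause was not tested. Of Node-marked transcripts, 76.5% were lower in Stipe at a 10-fold margin. Depth limits are unknown, since TPM holds no counts.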
